A study of Homo sapiens with 16 samples.

Results

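SH-SY5Y cells, an established human neuroblastoma line, were taken towards a neuron-like state on ordinary culture plates and set against untreated cells on plates. Of the 16 RNA-seq libraries of the series these 4 were compared, 2 from differentiated and 2 from untreated cells, because their labels name plates and no film. The other 12 libraries hold cells differentiated on 3 conducting films, with or without electrical stimulation, and enter only as a range of levels. All genes were examined: 30027 of the 36835 genes with a read in the series had one in these 4 libraries, and 16744 had enough reads to be tested.

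The differentiated cells had 2 days of growth, after which serum was cut in steps: 5% from day 2, then 2.5% (day 3), then 1% (day 5). They received 10 µM retinoic acid from day 3 to day 6 and then 4 days of serum-free DMEM/F12 with 50 ng/mL BDNF, with penicillin and streptomycin from day 2. The other group is labelled untreated. The labels do not say how long, or in how much serum, they were kept, so retinoic acid, BDNF, less serum and time in culture cannot be told apart. The labels describe a coating of poly-L-lysine and laminin for films and give none for plates. All 4 libraries come from 1 line, and nothing says that the replicates of a group were separate cultures, so p-values measure how far these libraries differ, and part of that may be technical.

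Retinoic acid enters the nucleus and switches on genes through paired receptors, RAR and RXR, that sit on DNA repeats; among its targets are enzymes that destroy retinoic acid itself. In neuroblastoma cells it slows division and favours outgrowth of neurites. BDNF acts through the receptor tyrosine kinase TrkB, which SH-SY5Y cells make little of until they have met retinoic acid. Neuroblastoma lines are also known to hold cells of an adrenergic, neuron-like state and of a mesenchymal state marked by matrix and adhesion genes.

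Between 18112071 and 19756694 reads per library lay in genes. Untreated replicates differed more from each other than differentiated ones: 421 of the tested genes were over 2-fold apart between the differentiated replicates and 2255 between the untreated ones. The coefficient of variation between replicates, estimated over genes, was 18.1% in differentiated and 36.2% in untreated cells, against 6.88% to 18.2% in the 6 film groups. For that reason the test used the spread of these 4 libraries alone, with 2 residual degrees of freedom. Replicates were not copies of each other: chi-square per degree of freedom over genes was 38.9 between differentiated and 89.9 between untreated replicates, far beyond sampling noise. Mitochondrial transcripts made up 8.58% and 5.42% of reads in genes in differentiated libraries and 8.09% and 7.51% in untreated ones.

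The label of the cells was checked against markers. Of 15 sympathetic neuroblast markers 14 were tested, none passed the test, and their summed level was 7848 and 8157 CPM (edgeR's CPM, on scaled sums of reads in genes) in differentiated cells and 7999 and 8325 CPM in untreated cells. Blood and endothelial markers summed to 1.45 and 3.58 CPM in differentiated cells and 1.79 and 1.58 CPM in untreated cells, with 8 of 12 at 0 in all 4 libraries. Schwann cell and glia markers summed to 13.5 and 13.6 CPM in differentiated cells and 35.2 and 37.5 CPM in untreated cells, and 5 of 14 were at 0.

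Differentiated cells differed from untreated cells in 320 genes (edgeR's quasi-likelihood test, Benjamini-Hochberg adjusted p up to 0.05). 118 rose, which is 0.705% of genes tested, and 202 fell, which is 1.21%; together they are 1.91%. The genes that passed moved far: 260 of the 320 changed by at least 2 on the log2 scale, and the median was 2.84 for the rises and -3.50 for the falls. The smallest change called was -1.18, so a change under about 2-fold was not detectable with this spread. Many of the 320 calls did not hold without each library in turn. The most were lost without differentiated replicate 2, when the spread between replicates came from the untreated libraries alone. At an unadjusted p under 0.05 there were 3590 genes. With a spread shared over all 16 libraries 2495 genes rose (13.8% of 18081) and 2858 fell (15.8%), and every one of the 320 was among them. With limma-voom, fitted over the 16 libraries with a weight for each group, 765 of 18081 genes were called, and 225 of the 320 were among them. Of the 765, 194 rose and 571 fell. In DESeq2 537 of 16744 genes rose and 779 fell. Independent of any test, both differentiated values lay above both untreated ones in 28.4% of genes and below them in 29.0%, which is the background for genes described below as separated upward or downward.

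**Figure D1:**
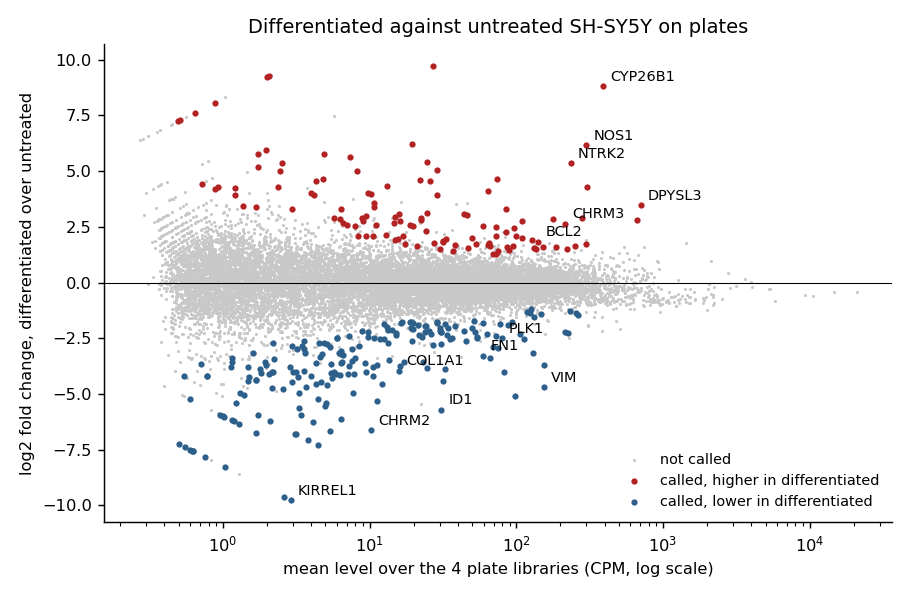
Log2 fold change, differentiated over untreated, against the mean level over the 4 plate libraries in CPM (log axis), 1 point per tested gene. The 118 genes that rose are red and the 202 that fell blue; called changes reach from -9.78 to 9.73.

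Rises were ranked among called genes with at least 5 CPM on average in 1 group, no overlap of the groups and no annotation as non-coding. This leaves out DRD5 and POU2AF3, described below. The retinoic acid system held the first of the 12 largest rises so ranked. CYP26B1, a cytochrome P450 that breaks retinoic acid down (chr2:72129238-72148038, minus strand, GRCh38), had 202 and 1354 CPM in differentiated cells, against 0.336 and 3.15 CPM in untreated cells. Both pairs of replicates were several-fold apart, yet the groups did not come near each other. The log2 change was 8.81 ± 1.31 (SE, n = 2 each; edgeR, adjusted p = 0.030), and it missed the threshold with untreated replicate 1 left out (edgeR, adjusted p = 0.24) or untreated replicate 2 left out (0.25). Its relative CYP26A1 had 2.59 and 20.2 CPM in differentiated cells and 0 and 0.117 CPM in untreated cells, and missed the threshold (edgeR, adjusted p = 0.051). DHRS3, a reductase that turns retinal back to retinol, had 76.9 and 207 CPM in differentiated cells and 4.48 and 6.94 CPM in untreated cells (log2 change 4.63 ± 0.54; edgeR, adjusted p = 0.018). That call too was lost with untreated replicate 1 or untreated replicate 2 left out, though the log2 changes stayed large. They were 4.38 and 4.98 for DHRS3, and 7.97 and 11.1 for CYP26B1. In those fits the spread between replicates came from the differentiated libraries alone.

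Of 20 tested genes of retinoic acid metabolism and its direct targets, 6 rose, 1 fell and 13 did not pass. Besides CYP26B1 and DHRS3, the rises included CRABP2, which carries retinoic acid to the nucleus, at 697 and 1629 CPM in differentiated cells and 172 and 164 CPM in untreated cells (log2 change 2.79 ± 0.45). RARB, a retinoic acid receptor that retinoic acid itself induces, had 65.2 and 93.2 CPM in differentiated cells and 16.6 and 23.3 CPM in untreated cells (1.99 ± 0.30; edgeR, adjusted p = 0.031, and 0.066 without differentiated replicate 2). The member that fell was CRABP1, a cytosolic binding protein, with 6.67 and 7.78 CPM in differentiated cells and 21.7 and 28.9 CPM in untreated cells (-1.81 ± 0.32; adjusted p 0.045, and 0.15 and 0.18 without differentiated replicate 1 or 2). The other receptors did not pass: RARA had 69.5 and 104 CPM in differentiated cells and 77.9 and 95.9 CPM in untreated cells, and RARG and RXRA lay lower in both differentiated libraries. The list therefore did not move as a whole, and its median log2 change was 0.10, against -0.03 for all genes tested.

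The RAR and RXR pair is known to bind 2 short repeats in a row that are spaced by 5 bases, an arrangement called DR5. Each repeat was AGGTCA, which is the consensus, or its variant AGTTCA, or one of the forms GGGTCA and, less common, GGTTCA. Any pair of them spaced by 5 was searched on both strands, in RefSeq's promoter windows of GRCh38.p14, which run from 250 bases before a gene's start to 50 after it. Only 31 of 35116 windows held one (0.0883%), in 29 of 27305 genes (0.106%). They included CYP26A1 and RARB, 2 of the 21 genes of the list with a window, and these are shown because both are textbook targets. The 110 bases before the start follow, with the repeat in capitals; it ends 36 bases before the start in RARB (chr3:25428153-25428262, plus strand) and 73 bases before it, on the opposite strand, in CYP26A1 (chr10:93073783-93073892, plus strand).
RARB: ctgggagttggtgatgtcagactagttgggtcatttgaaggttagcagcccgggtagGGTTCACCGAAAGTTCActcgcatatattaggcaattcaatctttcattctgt
CYP26A1: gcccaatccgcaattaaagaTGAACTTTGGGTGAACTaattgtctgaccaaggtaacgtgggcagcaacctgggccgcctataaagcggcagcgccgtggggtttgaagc
Of the 29 genes 9 were tested and RARB alone rose; CYP26B1, CRABP2 and DHRS3 have no match in these windows.

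The receptor that BDNF acts on rose with them. NTRK2, which encodes TrkB (chr9:84668551-85027070, plus strand), had 374 and 545 CPM in differentiated cells and 16.4 and 6.01 CPM in untreated cells (log2 change 5.35 ± 0.54; edgeR, adjusted p = 0.017), and the call held without each library in turn. It was the only one of 18 tested neurotrophin and GDNF signalling genes to pass, although 11 were separated upward and 2 downward. RET, the signalling receptor for GDNF, had 1270 and 3135 CPM in differentiated cells and 667 and 628 CPM in untreated cells (edgeR, adjusted p = 0.11). GFRA2, a co-receptor for neurturin, lay the other way, at 0.466 and 0.286 CPM in differentiated cells and 15.3 and 1.75 CPM in untreated cells (edgeR, adjusted p = 0.085). Of 23 tested immediate early and feedback genes, which such receptors switch on, none rose and 1 fell. That was FOSL2, a FOS family factor also listed with the mesenchymal state, with 6.26 and 4.39 CPM in differentiated cells and 27.0 and 19.1 CPM in untreated cells (log2 change -2.11 ± 0.37; edgeR, adjusted p = 0.044, and 0.22 without differentiated replicate 2). DUSP6, a phosphatase that dampens ERK, did not pass, with 171 and 221 CPM in differentiated cells and 86.7 and 76.0 CPM in untreated cells (edgeR, adjusted p = 0.052).

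The other large rises fell outside these families. NOS1, the neuronal nitric oxide synthase, had 326 and 853 CPM in differentiated cells and 12.1 and 4.49 CPM in untreated cells (log2 change 6.15 ± 0.69; edgeR, adjusted p = 0.017). SMOC1, a secreted calcium-binding matrix protein, had 39.9 and 57.0 CPM in differentiated cells and 0.840 and 1.46 CPM in untreated cells, and its replicates were close enough for one of the smallest p-values (5.39 ± 0.42; edgeR, adjusted p = 0.014). ARHGAP20, a GTPase-activating protein, had 23.3 and 53.8 CPM in differentiated cells and 0.504 and 0.525 CPM in untreated cells. ELFN1, a postsynaptic adhesion protein, rose too, but leaving out untreated replicate 1 or 2 ended its call (edgeR, adjusted p = 0.32 and 0.38). The remaining 5 of the 12 were HS3ST2, a heparan sulfate sulfotransferase (44.2 and 67.9 CPM in differentiated cells, 2.52 and 0.875 CPM in untreated cells), ANO3, TXK, BRINP2 and RHBG, which had at most 20.8 CPM in any library. The calls of NOS1, SMOC1, ARHGAP20 and these 5 held without each library. In limma-voom with a weight per group, however, 10 of the 12 largest rises lost their call, with adjusted p-values of 0.084 to 0.63, among them CYP26B1 (0.43), ARHGAP20 (0.34), TXK (0.34), SMOC1 (0.12) and NOS1 (0.11); NTRK2 (0.011) and HS3ST2 (0.020) passed there.

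ARHGAP20 lies at chr11:110577042-110713189, and 3 further genes on the same arm also had many reads in differentiated libraries and almost none in untreated ones. COLCA1 (chr11:111290787-111305045, minus strand) had 2235 reads over both differentiated libraries and 2 over both untreated ones, a ratio of 970 with a 95% counting interval of 268 to 8018. RefSeq lists it as a long non-coding RNA, so it is not counted among the 12 rises, although its log2 change of 9.73 ± 1.09 (edgeR, adjusted p = 0.017) was above that of CYP26B1. Leaving out untreated replicate 1 or 2 ended its call (edgeR, adjusted p = 0.23 and 0.27), as did limma-voom (0.66). POU2AF3 (chr11:111298555-111308735, plus strand), a co-activator of POU2F3, had 54 and 108 reads in differentiated libraries and none in untreated ones, at least 46.9-fold higher if 3 reads over the untreated pair are taken as the floor. POU2AF2 (chr11:111245805-111286401, plus strand) had 29 and 146 reads in differentiated libraries and none in untreated ones, and missed the threshold (edgeR, adjusted p = 0.052). COLCA1 and POU2AF3 overlap on opposite strands, and since no source used here says whether counting respected strand, their reads cannot be told apart. These 3 genes were singled out after their values were seen, as was DRD5, a dopamine receptor gene with 76 and 91 reads in differentiated libraries and none in untreated ones (at least 48.3-fold higher). In all, 17 genes had no read in untreated libraries and at least 10 in each differentiated one, and 14 showed the reverse.

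**Figure D2:**
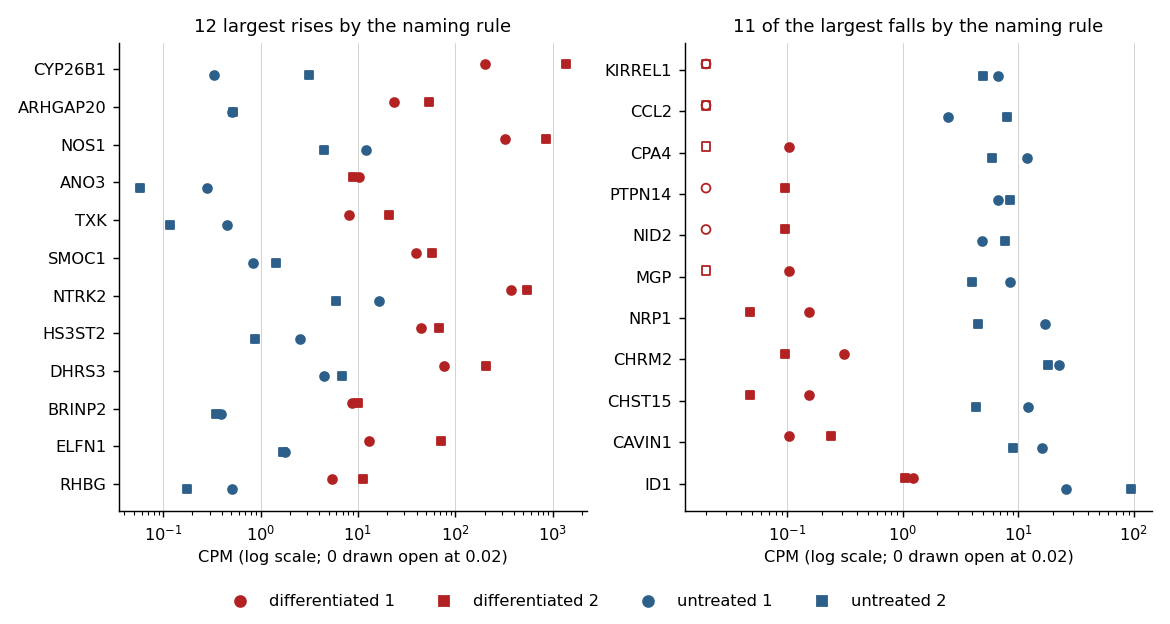
Level in each of the 4 libraries (CPM, log axis) of the 12 largest rises of genes not annotated as non-coding (left) and 11 of the largest falls (right); differentiated libraries are red and above the blue untreated ones, and open marks at 0.02 stand for 0. The groups do not overlap in these genes because the rule that picked them requires it. Among the 12 rises CYP26B1 shows the widest gap between differentiated replicates, at 202 and 1354 CPM.

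Genes of the neurite showed 1 call and many small differences. DPYSL3, a collapsin response mediator of growth cones, had 882 and 1703 CPM in differentiated cells and 131 and 103 CPM in untreated cells (log2 change 3.47 ± 0.42; edgeR, adjusted p = 0.020). It was the only one of 31 tested neurite and growth cone genes to pass. Yet 22 of the 31 lay higher in both differentiated libraries than in either untreated one, 2 lay lower, and the median log2 change was 0.58; with the 16-library spread 15 rose and none fell. DCX, a microtubule-binding protein of migrating neurons, had 744 and 896 CPM in differentiated cells and 206 and 339 CPM in untreated cells (1.59 ± 0.34; edgeR, adjusted p = 0.067). MAP2, which stabilises dendritic microtubules, had 454 and 496 CPM in differentiated cells and 281 and 233 CPM in untreated cells. STMN2, a stathmin of growth cones, did not separate the groups, at 2001 and 2024 CPM in differentiated cells and 1789 and 2371 CPM in untreated cells.

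Adhesion proteins and channels of neurons showed a like pattern. Of 25 adhesion molecules 2 rose: NCAM2, a homophilic adhesion protein, with 62.9 and 103 CPM in differentiated cells and 6.67 and 13.4 CPM in untreated cells (log2 change 3.05 ± 0.42; edgeR, adjusted p = 0.027), and ASTN1, astrotactin, with a log2 change of 1.69 ± 0.26 (edgeR, adjusted p = 0.030, and 0.14 without differentiated replicate 2). A further group lay lower in both differentiated libraries without passing, among them CNTN1, a contactin, at 75.9 and 78.6 CPM in differentiated cells and 178 and 318 CPM in untreated cells. In total 15 of the 25 were separated upward and 5 downward, where 28.4% and 29.0% of all genes were, so the downward group was not above the background. Of 21 sodium and calcium channel genes 1 rose, CACNA1D, an L-type calcium channel, with 14.1 and 17.3 CPM in differentiated cells and 2.91 and 1.28 CPM in untreated cells (2.89 ± 0.48; edgeR, adjusted p = 0.041, 0.052 without differentiated replicate 2, and 0.17 in limma-voom). The list's median log2 change was 1.03, with 15 members separated upward and 3 downward, and with the 16-library spread 14 rose and 2 fell. CACNA1G, a T-type calcium channel, ran against the rest without passing, at 7.40 and 7.59 CPM in differentiated cells and 25.1 and 127 CPM in untreated cells. Potassium channels showed no such lean: none of 26 passed, 9 were separated upward and 5 downward, and the median was 0.03.

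Among synapse and transmitter genes few single members passed. Of 34 synaptic vesicle and active zone genes SYT5, a synaptotagmin, alone rose, with 135 and 213 CPM in differentiated cells and 36.5 and 51.4 CPM in untreated cells (log2 change 1.98 ± 0.31; edgeR, adjusted p = 0.035, and 0.052 without differentiated replicate 2). In that list 17 members were separated upward and 2 downward. The muscarinic acetylcholine receptors changed in opposite directions. CHRM3, which couples to phospholipase C, had 353 and 389 CPM in differentiated cells and 62.3 and 56.2 CPM in untreated cells (2.65 ± 0.24; edgeR, adjusted p = 0.016). CHRM2, which lowers cyclic AMP, had 0.310 and 0.0954 CPM in differentiated cells and 22.6 and 18.2 CPM in untreated cells (-6.63 ± 0.57; edgeR, adjusted p = 0.014), and both calls held without each library. The kainate receptor subunit GRIK2 rose by 1.79 ± 0.30 (edgeR, adjusted p = 0.042, and 0.11 without differentiated replicate 2).

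Few genes of the transmitter phenotype passed the test. TH, the rate-limiting enzyme of catecholamine synthesis, had 0.569 and 0.811 CPM in differentiated cells and 1.23 and 1.87 CPM in untreated cells, and DBH, which makes noradrenaline, had 1008 and 865 CPM in differentiated cells and 1654 and 840 CPM in untreated cells. Of 18 catecholamine and cholinergic genes MAOB, a monoamine oxidase, rose by 1.75 ± 0.32, while SLC5A7, the choline transporter, fell to 1 read over both differentiated libraries, against 80 over both untreated ones. Neither call held without differentiated replicate 2 (edgeR, adjusted p = 0.32 for MAOB and 0.071 for SLC5A7). In dense core granules CHGB, a granule protein, had 1091 and 1124 CPM in differentiated cells and 420 and 321 CPM in untreated cells (edgeR, adjusted p = 0.052), and the neuropeptide gene NMU fell by 2.37 ± 0.43 (edgeR, adjusted p = 0.047, and 0.15 without differentiated replicate 2).

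Most transcription factors that define the adrenergic state did not pass the test. Of 24 adrenergic and proneural factors 2 fell and none rose, while 12 were separated downward and 4 upward, and the median log2 change was -0.42. With the 16-library spread 9 fell and 2 rose, where 15.8% of all genes fell and 13.8% rose. In limma-voom 6 fell, where 571 of 18081 genes did. TBX2, a T-box repressor, had 20.5 and 23.9 CPM in differentiated cells and 143 and 428 CPM in untreated cells (log2 change -3.69 ± 0.52; edgeR, adjusted p = 0.027), and SIX3, a homeobox factor, fell by 1.54 ± 0.25 (edgeR, adjusted p = 0.040, and 0.28 without differentiated replicate 2).

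Inhibitors of differentiation were among the falls. ID1, which blocks proneural helix-loop-helix factors and is a target of BMP signals, had 1.24 and 1.05 CPM in differentiated cells and 26.1 and 94.7 CPM in untreated cells (log2 change -5.71 ± 0.69; edgeR, adjusted p = 0.020). ID2 had 7.66 and 8.30 CPM in differentiated cells and 54.8 and 52.2 CPM in untreated cells (-2.74 ± 0.27; edgeR, adjusted p = 0.017), while ID4 did not pass, at 9.37 and 7.11 CPM in differentiated cells and 3.47 and 2.74 CPM in untreated cells. SMAD6, which BMP signals induce to restrain themselves, fell by 5.24 ± 0.55. NOTCH2, a Notch receptor, had 17.8 and 25.1 CPM in differentiated cells and 74.9 and 137 CPM in untreated cells (-2.30 ± 0.36). With PROM1, ID1 and ID2 it made up the 4 of 17 Notch and progenitor genes that fell; none rose, and the median was -1.14. In limma-voom ID1 (adjusted p = 0.10) and ID2 (0.32) did not pass. PROM1, a surface marker of progenitors, had no read in differentiated libraries and 25 and 14 in untreated ones, and lost its call without either differentiated library. NES, nestin, did not separate the groups.

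Genes of mitosis lay lower in differentiated cells in all 35 tested members, while those of DNA replication did not. The 35 mitosis genes were below both untreated values in both differentiated libraries, where 29.0% of all genes were, and 11 of them passed the test. CDC20, which activates the anaphase-promoting complex, had 21.9 and 12.7 CPM in differentiated cells and 74.9 and 191 CPM in untreated cells (log2 change -2.94 ± 0.50; edgeR, adjusted p = 0.042). PLK1, a kinase of mitotic entry, had 27.6 and 19.9 CPM in differentiated cells and 92.1 and 178 CPM in untreated cells (-2.51 ± 0.37; edgeR, adjusted p = 0.030). CCNB2, a B-type cyclin, had 21.6 and 11.2 CPM in differentiated cells and 67.6 and 116 CPM in untreated cells (-2.48 ± 0.41). The other 8 were PTTG1, AURKA, AURKB, CCNB1, BIRC5, UBE2C, DLGAP5 and HMMR. Of these, AURKA, CCNB1, BIRC5, DLGAP5 and HMMR lost their call without differentiated replicate 2, and HMMR also in limma-voom (adjusted p = 0.062). In DESeq2 33 of the 35 fell, where 779 of all 16744 genes did. With the 16-library spread all 35 fell, where 15.8% of all genes did. MKI67, the proliferation antigen, had 163 and 99.1 CPM in differentiated cells and 307 and 375 CPM in untreated cells (-1.38 ± 0.31; edgeR, adjusted p = 0.075). In bulk RNA, fewer dividing cells and less of these RNAs per cell cannot be told apart, which holds for every result here.

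Of 42 tested DNA replication genes none passed the test and 6 lay lower in both differentiated libraries than in either untreated one. Their median log2 change was -0.37, against -1.88 for mitosis. The untreated replicates stood further apart in this list than the groups did: its median was 1.23 higher in untreated replicate 1 than in replicate 2 on the log2 scale, and 0.82 higher in differentiated replicate 1 than in 2. MCM5, a subunit of the replicative helicase, had 130 and 78.0 CPM in differentiated cells and 141 and 59.3 CPM in untreated cells. RRM2, a subunit of ribonucleotide reductase, had 79.0 and 32.5 CPM in differentiated cells and 182 and 47.7 CPM in untreated cells. With the 16-library spread 6 of the 42 fell and none rose, where 15.8% of all genes fell and 13.8% rose. No G1 cyclin or CDK inhibitor of 22 passed; CCND1, cyclin D1, had 1227 and 1180 CPM in differentiated cells and 940 and 309 CPM in untreated cells.

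**Figure D3:**
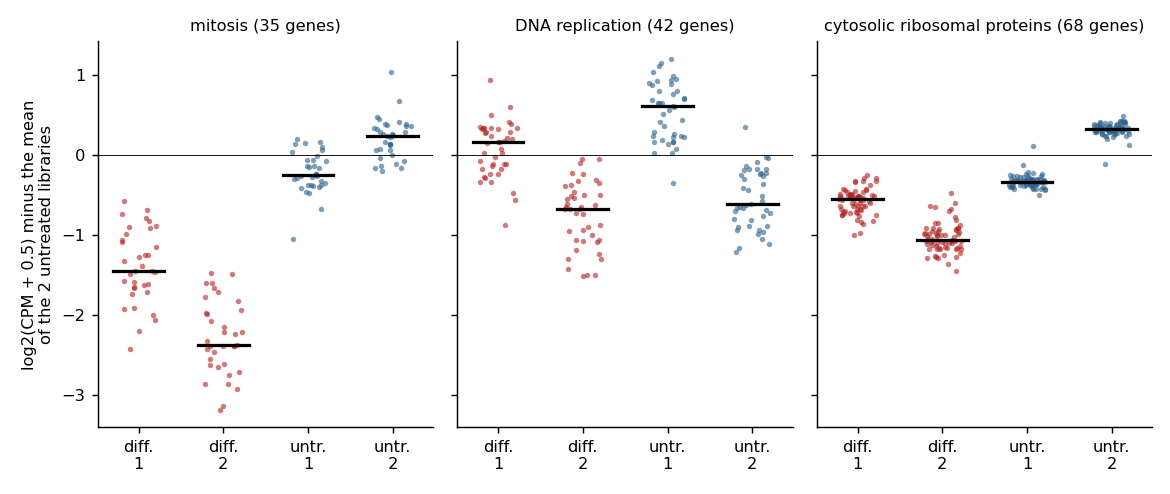
Members of 3 lists in each library as log2(CPM + 0.5) minus the mean of the 2 untreated libraries, 1 point per gene, with medians as bars, differentiated libraries (red) left of untreated ones (blue). Mitosis medians are -1.45 and -2.38 in differentiated libraries and -0.24 and 0.24 in untreated ones, while DNA replication medians are 0.16 and -0.67 in differentiated libraries and 0.61 and -0.61 in untreated ones.

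The 2 cell cycle lists also differ in their promoters. The cell cycle homology region TTTGAA, through which the DREAM complex is known to hold G2 and M genes silent outside division, was searched for on both strands of the same windows. It occurs in 18.2% of all genes with a window (15.2% of windows), in 23 of 31 mitosis genes with a window, and in 1 of 37 DNA replication genes. The E2F letters TTTGGCGC or TTTCGCGC run the other way: 1.40% of all genes and 1.15% of windows hold one, against 2 of 31 mitosis and 13 of 37 DNA replication genes. CCAAT, which accompanies TTTGAA in many mitotic promoters, is in 26 of the 31 mitosis genes and in 39.7% of all genes. Members that hold TTTGAA include DLGAP5 and HMMR, which passed the test, and MKI67 and TOP2A, which did not. PTTG1, AURKB and CCNB1 passed the test and have a window without it. The 110 bases before the start of 3 genes that fell, picked by hand from those that hold TTTGAA, are shown with it in capitals. Each also holds ccaat in lower case. They are CDC20 (chr1:43358871-43358980), CCNB2 (chr15:59105036-59105145) and PLK1 (chr16:23678779-23678888), all on the plus strand.
CDC20: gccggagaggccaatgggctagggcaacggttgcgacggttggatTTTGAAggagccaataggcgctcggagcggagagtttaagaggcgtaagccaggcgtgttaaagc
CCNB2: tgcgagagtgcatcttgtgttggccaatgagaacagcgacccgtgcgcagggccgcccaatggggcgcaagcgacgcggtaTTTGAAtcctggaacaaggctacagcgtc
PLK1: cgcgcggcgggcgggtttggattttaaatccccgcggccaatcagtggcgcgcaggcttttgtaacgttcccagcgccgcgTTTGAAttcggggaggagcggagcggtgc
The element ends 59 bases before the start in CDC20 and 23 bases before it in CCNB2 and in PLK1. These are matches of letters, not measured sites.

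Genes of the mesenchymal state fell by large factors. VIM, the intermediate filament vimentin (chr10:17228259-17237593, plus strand), had 15.3 and 7.59 CPM in differentiated cells and 331 and 262 CPM in untreated cells (log2 change -4.70 ± 0.40; edgeR, adjusted p = 0.014). Neurofilament genes of the same family did not pass: NEFM had 313 and 422 CPM in differentiated cells and 313 and 140 CPM in untreated cells. Of 22 tested genes of the mesenchymal neuroblastoma state 10 fell and none rose, and the median was -2.24. Besides VIM they included CD44, a hyaluronan receptor, with 0.310 and 0.191 CPM in differentiated cells and 6.89 and 4.44 CPM in untreated cells (-4.47 ± 0.59), and SNAI2, a repressor of epithelial genes, with 0.776 and 0.668 CPM in differentiated cells and 7.06 and 4.32 CPM in untreated cells (-2.97 ± 0.51). TWIST1 lay lower in both differentiated libraries without passing, and ZEB1 and ZEB2 showed no separation. Among the 10 falls, FN1, ID1, NOTCH2, YAP1, WWTR1 and FOSL2 also belong to other lists described here. They are counted again there, so the falls of these lists are not separate results. The calls of FOSL2, SNAI2, TGFBR2, YAP1 and WWTR1 were lost without differentiated replicate 2, and that of SNAI2 also without differentiated replicate 1. SNAI2 did not pass in limma-voom either (adjusted p = 0.067).

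Genes of the extracellular matrix fell as well. FN1, fibronectin, had 8.02 and 14.3 CPM in differentiated cells and 106 and 111 CPM in untreated cells (log2 change -3.28 ± 0.34; edgeR, adjusted p = 0.017). COL1A1, the fibrillar collagen (chr17:50183289-50201632, minus strand), had 1.76 and 2.05 CPM in differentiated cells and 29.1 and 30.6 CPM in untreated cells (-3.96 ± 0.34; edgeR, adjusted p = 0.014), and COL3A1 had 3.88 and 7.21 CPM in differentiated cells and 273 and 107 CPM in untreated cells. Of 32 tested matrix genes 14 fell and 1 rose. The fall took in the basement membrane as well as fibrillar collagens: NID1, nidogen, had 22.3 and 29.1 CPM in differentiated cells and 148 and 318 CPM in untreated cells (-3.18), and COL4A1 had 9.83 and 3.87 CPM in differentiated cells and 55.1 and 39.7 CPM in untreated cells (-2.79). The one rise was VCAN, versican, a proteoglycan of neural matrix, with 203 and 425 CPM in differentiated cells and 46.1 and 41.1 CPM in untreated cells (2.85 ± 0.38; edgeR, adjusted p = 0.026). In limma-voom neither VCAN (adjusted p = 0.31) nor COL3A1 (0.17) passed. Of the fibroblast markers, which this list overlaps, 3 of 12 tested fell; they summed to 741 and 844 CPM in differentiated cells and 1159 and 1204 CPM in untreated cells, with 2 of 18 at 0 in all 4 libraries. Whether a few cells of another type took part was not tested.

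Some receptors and regulators that read the matrix fell alongside. ITGA5, the fibronectin receptor's alpha chain, had 1 read in each differentiated library and 84 reads over both untreated ones (edgeR, adjusted p = 0.025, and 0.055 without differentiated replicate 2), and CAVIN1, a coat protein of caveolae, had 0.104 and 0.239 CPM in differentiated cells and 16.1 and 9.04 CPM in untreated cells (log2 change -6.13 ± 0.63). They are among 5 of 34 integrin, laminin and focal adhesion genes that fell, and none rose; the others were ITGA4, LAMA1 and FLNC. Without differentiated replicate 2 the list held 2 falls, CAVIN1 and FLNC, and 1 rise, ITGA4 (edgeR, adjusted p = 0.066) and LAMA1 (0.099) losing their call with ITGA5; FLNC did not pass in limma-voom (adjusted p = 0.27). Of 24 genes of the YAP and TEAD pathway, which turns stiffness and spreading into transcription, 8 fell and none rose. YAP1 itself had 3 reads over both differentiated libraries and 95 over both untreated ones, a ratio of 36.5 (95% counting interval 12.1 to 180), and WWTR1, its partner TAZ, fell by 4.43 ± 0.72. Their targets CCN1 (0.466 and 0.620 CPM in differentiated cells, 5.44 and 38.6 CPM in untreated cells; edgeR, adjusted p = 0.048, and 0.099 without differentiated replicate 2), ANKRD1 and CRIM1 fell as well, and PTPN14, an inhibitor of YAP, went to 2 reads in differentiated cells against 264 in untreated cells. The DNA-binding partners differed. TEAD4 was among the falls, with a log2 change of -2.03 in limma-voom (adjusted p = 0.0057), though its edgeR call was lost without differentiated replicate 2. TEAD1 did not pass, at 165 and 179 CPM in differentiated cells and 148 and 236 CPM in untreated cells. Without differentiated replicate 2 the list held 3 falls; the calls lost then included YAP1 (edgeR, adjusted p = 0.075) and WWTR1 (0.16). In limma-voom YAP1 (adjusted p = 0.076) and ANKRD1 (0.071) did not pass.

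Secreted and guidance factors completed the largest falls. CCL2, a chemokine that draws monocytes, had no read in differentiated libraries and 44 and 138 in untreated ones, at least 69.9-fold lower (its call was lost in limma-voom, adjusted p = 0.19), and KIRREL1, an immunoglobulin adhesion protein, had none against 119 and 85, at least 78.3-fold lower. NRP1, a co-receptor for class 3 semaphorins and VEGF, had 0.155 and 0.0477 CPM in differentiated cells and 16.9 and 4.49 CPM in untreated cells (log2 change -6.65 ± 0.95). SEMA3C, one of its ligands, had 11.7 and 7.83 CPM in differentiated cells and 126 and 187 CPM in untreated cells (-4.00 ± 0.34; edgeR, adjusted p = 0.014). Of 36 axon guidance genes these 2 fell and RTN4RL1, a Nogo receptor relative, rose by 3.29 ± 0.56 (edgeR, adjusted p = 0.042, 0.064 without differentiated replicate 2, and 0.055 in limma-voom), so the list as a whole did not move one way (median -0.16). Further large falls were CPA4, a carboxypeptidase, MGP, matrix Gla protein, and CHST15, a sulfotransferase, each with at most 0.155 CPM in differentiated libraries and at least 3.97 CPM in untreated ones. IGFBP5, a carrier of insulin-like growth factors, fell by 2.63 ± 0.40.

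**Figure D4:**
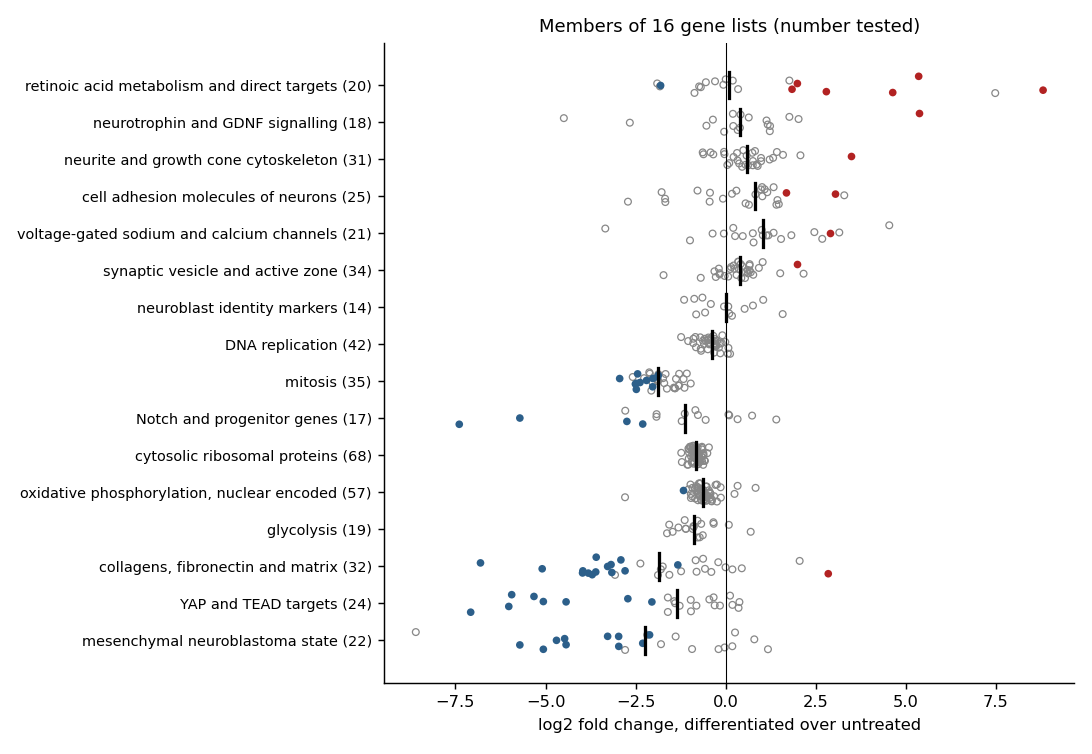
Log2 fold change, differentiated over untreated, of every tested member of 16 gene lists, with the number tested in brackets; filled points passed the test (red higher, blue lower), open points did not, and black bars are medians. Medians run from -2.24 in the mesenchymal list to 1.03 in the sodium and calcium channel list, and filled points are scarce among the neurite, channel and ribosome lists.

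Many growth and metabolism genes lay slightly lower in differentiated cells, and 1 of them passed the test. Of 68 cytosolic ribosomal protein genes none passed, and their median log2 change was -0.83. Yet 64 lay lower in both differentiated libraries than in either untreated one, against 29.0% of all genes. With the 16-library spread 65 fell, where 15.8% of all genes did. In limma-voom 14 fell, where 571 of 18081 genes did, and in DESeq2 8, where 779 of 16744 did. RPLP0, a stalk protein, had 1397 and 1003 CPM in differentiated cells and 2226 and 3354 CPM in untreated cells (edgeR, adjusted p = 0.15). Ribosomal protein transcripts made up 5.58% and 4.15% of reads in genes in differentiated libraries and 6.27% and 9.07% in untreated ones, and the untreated replicates had a median difference of 0.66 (log2) in this list, replicate 2 being the higher. Of 31 ribosome biogenesis genes none passed and 18 were separated downward. Of 57 nuclear genes of oxidative phosphorylation 47 were separated downward and 2 upward; NDUFA4, a cytochrome oxidase subunit, alone passed (-1.18 ± 0.22; edgeR, adjusted p = 0.048), and not without differentiated replicate 1 (0.16) or 2 (0.52). Of 19 glycolysis genes none passed, and 15 were separated downward. In DESeq2 8 of the 19 fell, where 779 of 16744 genes did. GAPDH was among those separated downward, with 1648 and 1432 CPM in differentiated cells and 2945 and 2875 CPM in untreated cells. None of the 13 mitochondrially encoded transcripts passed.

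Lipid synthesis genes lay slightly higher without a call. Of 32 cholesterol and fatty acid genes none passed, 15 were separated upward and 1 downward, and the median was 0.36; with the 16-library spread 9 rose. SCD, which desaturates fatty acids, had 1021 and 1414 CPM in differentiated cells and 577 and 707 CPM in untreated cells. Among genes of the unfolded protein and integrated stress response 1 of 32 fell. It was DDIT4, an inhibitor of mTOR, with 10.1 and 11.6 CPM in differentiated cells and 69.0 and 32.0 CPM in untreated cells (log2 change -2.22 ± 0.40, edgeR adjusted p = 0.048, and 0.061 in limma-voom). Of the 32, 21 were separated downward and 3 upward, with a median of -0.74. In DESeq2 10 fell, where 779 of 16744 genes did. With the 16-library spread 13 fell, where 15.8% of all genes did. The chaperone HSPA5 had 171 CPM in both differentiated libraries and 649 and 358 CPM in untreated ones without passing. Of 16 genes of the BCL2 family BCL2, which blocks apoptosis, alone rose, with 157 and 286 CPM in differentiated cells and 61.4 and 62.3 CPM in untreated cells (1.84 ± 0.32; edgeR, adjusted p = 0.044, 0.15 without differentiated replicate 2, and 0.12 in limma-voom). No gene passed among 15 heat shock, 23 oxidative stress, 27 lysosome or 12 HOX genes.

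Levels in the 12 film libraries, all of them from differentiated cells, were read on a scale set over the 16 libraries and were not tested here. Several lay near the differentiated plates. CYP26B1 spanned 483 to 1559 CPM on films (median 1282), against 212 and 1417 CPM on differentiated plates and 0.355 and 3.27 CPM on untreated plates. NTRK2 spanned 284 to 496 CPM on films, against 392 and 571 CPM on differentiated plates. VIM spanned 3.72 to 26.2 CPM on films, against 16.1 and 7.94 CPM on differentiated plates and 350 and 272 CPM on untreated plates. Others did not follow: SMOC1 reached 1.74 to 10.6 CPM on films and 41.9 and 59.6 CPM on differentiated plates, CHRM3 131 to 249 CPM on films and 371 and 407 CPM on differentiated plates, and ID1 1.97 to 27.7 CPM on films and 1.30 and 1.10 CPM on differentiated plates. In these 3 genes no film library overlapped the differentiated plates.

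**Figure D5:**
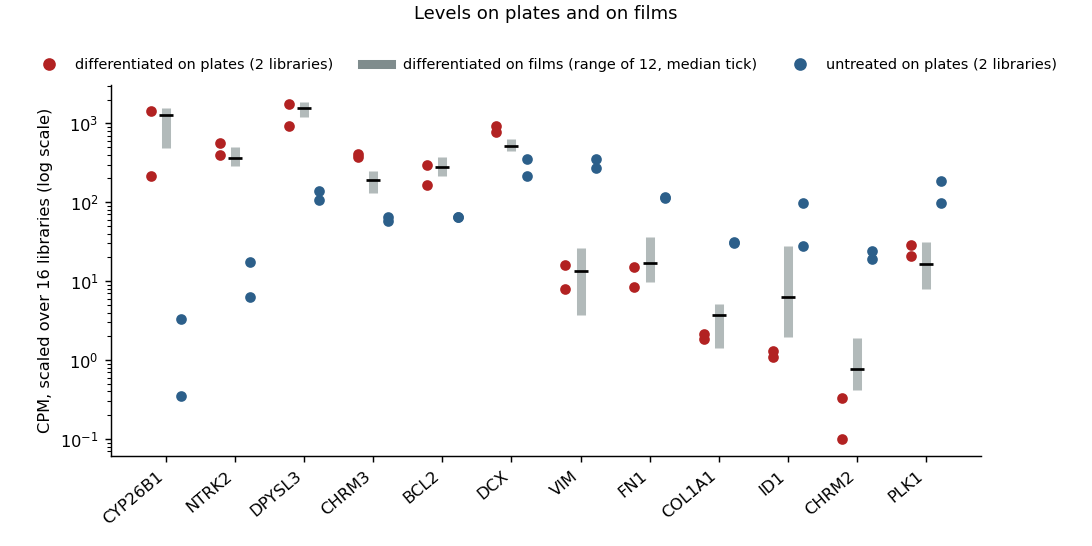
Levels of 12 genes (CPM scaled over 16 libraries, log axis): red points are the 2 differentiated plates, grey bars the range of 12 film libraries with the median as a tick, blue points the 2 untreated plates. The film range of VIM, 3.72 to 26.2 CPM, lies far below the untreated plates, and that of CHRM3, 131 to 249 CPM, lies between the differentiated and the untreated plates.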

How the data were processed

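Polyadenylated RNA was made into directional libraries, per the labels' protocols. The deposited values are counts of reads per gene made by the authors with STAR and HTSeq on GRCh38.p13 or hg38, per the submitters' processing notes; their versions, the annotation release and the strand setting are not given in the sources used here, which leaves overlapping and antisense genes uncertain. The table has 69222 gene rows, 32387 of them without a read, and 5 rows for reads without a gene, which were left out of library sizes; in the plate libraries these held 4.59% to 6.53% (no gene), 4.00% to 4.38% (ambiguous), 6.66% to 6.82% (not unique) and 9.09% to 15.5% (not aligned) of reads. Symbols matched 62686 IDs.

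The rest was computed with R 4.3.3 and edgeR 4.0.16. The package's expression filter (minimum count 10) was applied over the 2 plate groups, libraries were scaled by TMM, and the robust quasi-likelihood model was fitted on the 4 libraries with no block. Calls needed a p of 0.05 or less after Benjamini-Hochberg adjustment over all 16744 genes tested. Each standard error is the size of the log2 change over the square root of its F value, with a median of 0.35. Alternatives used limma 3.58.1 and DESeq2 1.42.0. The script was tested on simulated data.

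Named genes were, among calls with a gene symbol that neither its name nor RefSeq's gene type marks as non-coding, at least 5 CPM in 1 group and no overlap, the top 12 in each direction by log2 change, and the 2 smallest p-values of each of 41 lists (1175 genes), plus further list members. Members and lists were chosen with earlier results of these data known. Lists are described by counts and medians and were not tested as sets. Coordinates are from GENCODE 29 (GRCh38) and promoters from RefSeq (GRCh38.p14). Intervals cover counting error only. Replicate numbers 1 and 2 recur in both groups, as does a shared prefix in the sample descriptions, but the labels do not say what they mark. Some genes that the rule names are not reported here.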

Additional observations from a re-analysis of the deposited data

How the results depend on the processing

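The number of genes called depended on how the spread was estimated. Against 320 (118 higher, 202 lower), 5353 were called with all 16 libraries in 1 fit (2495 higher, 2858 lower, all 320 included), 765 with limma-voom and a weight per group (194 higher, 571 lower, 225 of the 320 included), 2107 without the low-count filter, 1316 in DESeq2 (319 of the 320 included) and 319 under relative log expression scaling. Of the 12 largest rises 2 and of the 12 largest falls 9 kept their call in limma-voom. There the differentiated group had a weight of 0.69 and the untreated group 0.201. Leaving out 1 library gave 164 to 5169: 483 without differentiated replicate 1, 164 without differentiated replicate 2, 5169 without untreated replicate 1 and 1773 without untreated replicate 2, the lone library then being assumed to vary like the other group; 139 of the 320 were called in all 4. The replicate block gave 946 calls (320 included), but same-numbered libraries did not deviate together (r = 0.031 over 16744 genes, 2 pairs), so it was not established that the numbers pair the samples. The cause of these differences was not tested. None of the genes named by rule changed direction under any setting that gave it a value. Every setting compares the same 4 plate libraries, and the largest rises and falls were picked among genes whose groups do not overlap. Their direction could hardly change, so this gives no further support. Depth limits the genes with no read or a few reads in a group, whose folds are bounds or have wide counting intervals.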
